A study of Mus musculus with 32 samples.

Results

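Nanog and Phc1 were 2 of the 14 bait fragments of a Capture-C experiment, and they lie on one stretch of mouse chromosome 6. Every deposited pair of either bait with another fragment 10 kb to 1 Mb away was taken from both contact tables, which gave 153 pairs out of 30435 in the series, 81 of the Nanog bait and 72 of the Phc1 bait. In Capture-C, crosslinked chromatin is cut with a restriction enzyme (here DpnII, which cuts at GATC), fragments held close together are ligated, and the ligation products of chosen baits are enriched and counted.

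The cells were small-intestinal organoids, epithelial cultures grown from intestinal stem cells, of C57BL/6JRj mice labelled aged, at passages 2 to 5. They were kept for 3 hours in medium with 500 pg/ml of the cytokine interferon gamma (IFNγ) or without it, so all groups share the strain, the age label and the culture. The 32 sequencing samples are 8 libraries run on 4 lanes each, 4 libraries per condition, from 2 mice with 2 passages per mouse. The contact tables hold DNA contacts and no expression, so the epithelial identity of the cells was not checked here. Labels and table names conflict: by its description an IFNγ sample belongs to the table whose name means control, and a control sample to the other. The tables are therefore called control-named and IFNγ-named, with no condition given to either, and each signed difference is IFNγ-named minus control-named, with the sign turned beside it. Tests between the tables treat the libraries as unpaired, and tests within libraries take each library as a pair. P-values of both kinds may be too small, since the libraries come from 2 mice. By the labels, each passage of each mouse was sampled under both conditions, a pairing that the count columns do not show. Leaving it out can also make p-values between the tables too large. The libraries held 23037 to 37290 reads over all baits.

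Nanog encodes a homeodomain transcription factor that maintains pluripotency in embryonic stem cells and is silent in most adult tissues. Phc1 encodes a polyhomeotic subunit of Polycomb repressive complex 1, which keeps genes silent and compacts chromatin. The genes around them include Dppa3, Gdf3 and Slc2a3, which are active with Nanog in pluripotent cells, and a cluster of Clec4 genes, which encode C-type lectin receptors of myeloid cells. A bait in such a place samples both the genes next to it and the wider neighbourhood, and contact frequency is known to fall with distance.

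The Nanog bait fragment (chr6:122707354-122707701, build mm10) starts at a DpnII site inside the Nanog promoter, 250 bases of which are shown from RefSeq (GRCm38.p6, chr6:122707239-122707488, plus strand) because they show where the bait begins. Capitals mark the DpnII sites GATC, the second of which is the first base of the bait, and the run TTTGCAT, 1 base, ACAATG, the letters of the paired octamer and Sox site known from this promoter.
Nanog promoter: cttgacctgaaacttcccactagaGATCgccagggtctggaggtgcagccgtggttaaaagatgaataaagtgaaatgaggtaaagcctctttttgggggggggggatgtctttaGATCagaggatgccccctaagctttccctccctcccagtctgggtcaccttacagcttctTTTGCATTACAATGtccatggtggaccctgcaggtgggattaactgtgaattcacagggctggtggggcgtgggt
The joined run occurred, on either strand, in the promoter windows of 1 of 26734 genes in the RefSeq table, namely Nanog, and in 2 of 32536 distinct windows of the same length (0.00615%). TTTGCAT alone was in 4.15% and ACAATG alone in 10.5% of those windows, and both overlap the joined run. The letters GATC were in 41.7% of the windows. The Phc1 bait fragment (chr6:122339268-122340303) ends at the DpnII site of the Phc1 promoter, whose window lies on the minus strand and holds neither TTTGCAT nor ACAATG. The interferon-type letters TTCNNNGAA, searched on both strands, were in the Phc1 window and not in the Nanog window, and in 7.04% of all windows. These matches describe letters only.

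The baits were 367.7 kb apart from centre to centre. Phc1 lies on the left in genome coordinates and Nanog on the right, so for Nanog the side of the other bait is the left, and for Phc1 it is the right. The Nanog bait had 2789 reads from 10 kb to 1 Mb, of which 1588 were control-named and 1201 IFNγ-named. The Phc1 bait had 2591, of which 1367 and 1224 lay in the respective tables. Both ranked low among the 14 baits by reads in this range, 11th for Nanog and 12th for Phc1. The reads were concentrated in few fragments: of 5556 DpnII fragments within the range of Nanog 1.46% had a read, and of 5547 within that of Phc1 1.30%. The median length of the listed fragments was 401 bp for Nanog and 436 bp for Phc1, against 228 and 231 bp for all DpnII fragments in the same ranges. None of the 150 listed fragments was shorter than 103 bp.

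**Figure D1:**
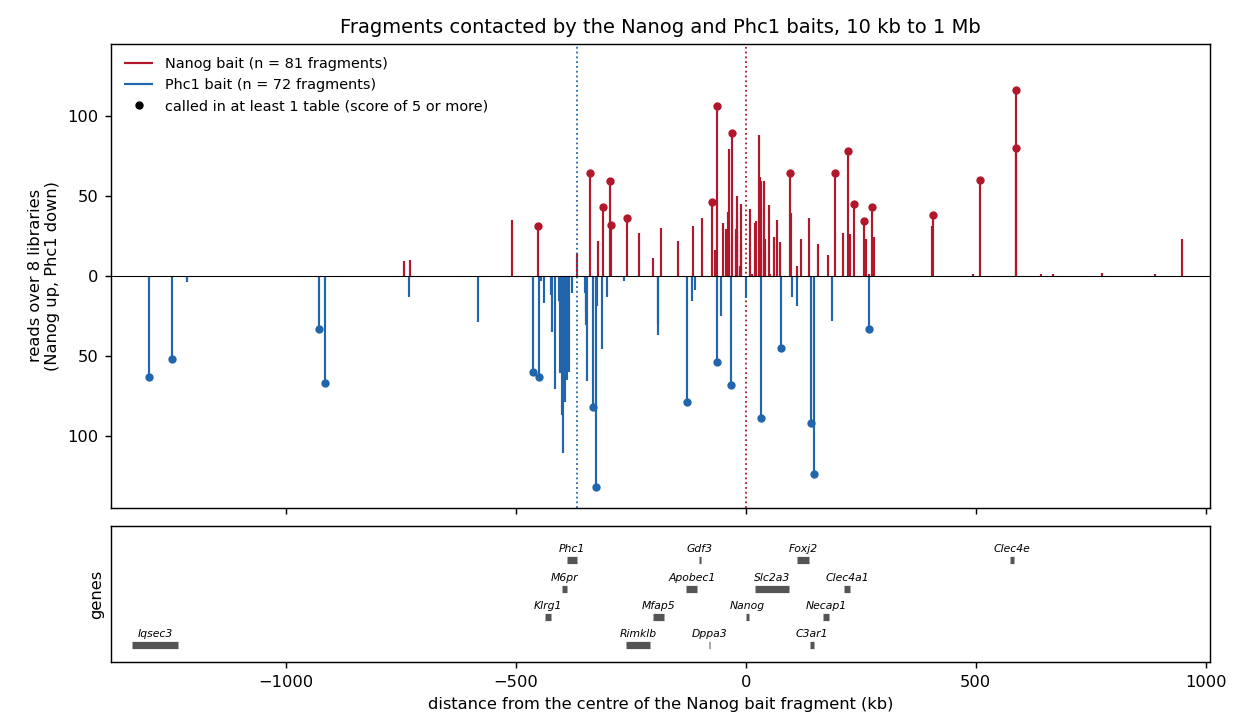
Reads summed over the 8 libraries (vertical axis) for each fragment contacted 10 kb to 1 Mb from the Nanog bait (81 fragments, upward) or the Phc1 bait (72 fragments, downward), by distance from the centre of the Nanog bait fragment in kb (horizontal axis). Dotted lines mark the baits, dots mark contacts called in at least 1 table, and grey bars in the lower panel are genes. The tallest lines are the Nanog pair at 588.3 kb with 116 reads and the Phc1 pair 42.8 kb to the right of its bait with 132 reads, and the line of each bait at the position of the other is short, at 14 reads.

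The ligation product that joins the Nanog bait directly to the Phc1 bait was read in both tables. It had 14 reads in all, 3, 3, 1 and 2 in the control-named libraries and 0, 4, 1 and 0 in IFNγ-named libraries. The groups overlapped, and 6 of 8 libraries held at least 1 read. The pair is listed from both directions with the same counts, so it is 1 measurement. Its deposited score, the authors' own measure of a contact above a modelled background, was 0.0485 (control-named) and 0.196 (IFNγ-named) from the Nanog side, against 5 for a called contact. The score did not follow the reads here. The Phc1 pair at 364.6 kb left, with 13 reads, scored 3.67 (control-named) and 1.90 (IFNγ-named), and the one at 368.1 kb right, with 1 read, scored 1.91 (control-named). How pairs between 2 baits were scored was not given, so the low score is not read as a lack of contact. The other Nanog pairs 300 to 450 kb from the bait numbered 5, and held 22 to 64 reads (median 38), all above 14. Of the other 10 Phc1 pairs at that distance, which held 1 to 89 reads (median 19), 5 were above 14. Both sets hold only pairs with a read, and most DpnII fragments had none (1.46% of those in the Nanog range and 1.30% in the Phc1 range had one). The direct pair joins 2 baits and could be enriched through either, while the pairs of both sets hold 1 bait. Its reads were not corrected for this. Within 25 kb of Phc1, the direct pair was the only one that Nanog had among 118 DpnII fragments.

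Reads within 25 kb of the other bait were compared with the window of the same size at the same distance on the opposite side. Nanog had 14 reads at Phc1, all of them the direct pair, and 0 in the mirrored window, or 1.75 ± 1.49 against 0 reads per library (SD, n = 8). The window at Phc1 was higher in 6 libraries and equal in 2, and the difference did not pass after adjustment over both baits (two-sided exact sign-flip permutation test, p = 0.0312, adjusted p = 0.0625). With 0 reads opposite, this p restates that 6 libraries held a read of the direct pair and does not set the pair against distance. The mirrored window, which lies in the Clec4 cluster, held 172 DpnII fragments with 68.1% of their bases in repeats, against 118 fragments with 25.7% at Phc1. The part of this difference in the result was not tested. Phc1 had 2.00 ± 1.85 reads per library at Nanog and 1.62 ± 1.06 in its mirrored window (higher in 3, lower in 3, equal in 2; same test, p = 0.656, adjusted p = 0.656). Without the direct pair, Nanog had no read in either window, and 2 of the 16 Phc1 reads at Nanog were left beside the 13 of the mirrored window. Taking the pair out of one window only fixes that direction, so no test of it is given.

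Widening the windows to 50 kb on each side changed the picture for Phc1 only by taking in fragments beyond the Nanog promoter. Phc1 then had 174 reads in 6 pairs around Nanog and 13 reads in 1 pair opposite, or 21.8 ± 16.4 against 1.62 ± 1.06 per library. The window around Nanog was higher in 8 of 8 (exact sign-flip permutation test, p = 0.00781, the smallest that 8 libraries allow, adjusted p = 0.0156). The control-named libraries held 53, 22, 9 and 16 reads there and the IFNγ-named libraries 8, 40, 17 and 9. Most of these reads lay in Phc1 pairs at 336.0 kb (68 reads) and 401.1 kb (89 reads), on either side of Nanog. A single library held 30 of the 68 (IFNγ-named library 2) and 43 of the 89 (control-named library 1). The p measures the spread over libraries and not over positions, so pairs like these, read in every library, can set it alone. The wide window around Nanog held 278 DpnII fragments with 40.9% of their bases in repeats, and the mirrored one 320 with 50.7%. The part of this in the result was not tested. Nanog had 100 reads in the wide window at Phc1 and 69 opposite, higher in 4 libraries, lower in 3 and equal in 1 (p = 0.594, same exact test). Within 25 kb of the other bait, by contrast, Nanog had 14 reads and Phc1 16.

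The lists of fragments contacted by the 2 baits were short and hardly overlapped. With 10 or more reads as the minimum, Nanog had 70 fragments and Phc1 55, and no fragment was in both lists, although 68 and 52 of them lay in the range of both baits. These are 1.49% and 1.14% of the 4561 DpnII fragments in that range, and lists this short would share few fragments even if unrelated, so the 0 is a description only. With 1 or more reads 3 fragments were shared, which is 3.70% of the Nanog list and 4.17% of the Phc1 list. The first (chr6:122671188-122671629, 35.9 kb left of the Nanog start site) had 79 reads from Nanog and 1 from Phc1. The second (chr6:122685640-122686152) had 29 from Nanog and 1 from Phc1. The third (chr6:122818500-122819566, 0.35 kb from a start site of Foxj2, a forkhead transcription factor gene) had 6 from Nanog and 19 from Phc1, 13 of the latter in control-named library 1. For comparison, the 3 Ciita baits, which lie within 10 kb of each other, shared 6 to 8 fragments at the 10-read minimum, between 8.82% and 16.7% of a list.

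In 10 kb bins of the chromosome, a comparison added after the fragment lists had been seen, Nanog occupied 46 bins and Phc1 34, and 12 were shared, 26.1% and 35.3% of the respective lists. The Ciita baits shared 16 to 20 such bins, from 34.0% to 61.5% of a list. Within 2 kb of a Phc1 fragment, and without being the same fragment, lay 10 Nanog fragments, next to 9 Phc1 fragments in all (10 or more reads each). Unrelated lists would also share some bins and lie close in places. How many was not worked out, so these counts are a description only.

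Shares of reads per gene were not scaled for gene length or distance. Seen from Nanog, the gene with the largest share was Slc2a3 (chr6:122727809-122801640), which lies close to the bait on the right. Its gene body, that of the glucose transporter GLUT3, held 15 Nanog pairs with 563 reads, 21.1% ± 1.48 of the bait's 10 kb to 1 Mb reads in control-named and 18.8% ± 1.22 in IFNγ-named libraries (SD, n = 4 each). No library fell outside 17.8% to 22.5%. None of these 15 pairs was called by its score in either table. The strongest of them, at 28.0 kb (chr6:122735429-122735566), had 10, 10, 9 and 8 reads in control-named and 8, 14, 16 and 13 in IFNγ-named libraries, 88 in all, and its highest library held 18.2% of them, the lowest such share of any Nanog pair with 10 or more reads. The groups overlapped.

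The other genes at the top of the Nanog shares each rested on 1 or 2 pairs. They were Clec4a1 (2.08% ± 0.661 and 5.34% ± 5.19 in control-named and IFNγ-named libraries), Rimklb, an amino acid ligase gene (1.81% ± 0.877 and 3.18% ± 2.69), Clec4a2 (2.58% ± 1.37 and 2.40% ± 2.20), Foxj2 (1.25% ± 0.504 and 3.45% ± 4.43) and Clec4a3 (1.15% ± 0.517 and 3.25% ± 3.05). Mfap5, a microfibril protein gene, had 1.80% ± 1.15 and 0.925% ± 0.173, and Apobec1, the apolipoprotein B mRNA editing enzyme of the intestine, 0.735% ± 0.300 and 1.36% ± 1.75. For each of these genes the larger SD exceeded the difference between the tables.

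Seen from Phc1, the nearest neighbour on the left dominated. M6pr, the cation-dependent mannose 6-phosphate receptor, held 8 pairs with 459 reads, 17.2% ± 2.89 in control-named and 18.7% ± 6.24 in IFNγ-named libraries. The pair nearest to its start site with many reads (30.3 kb away, chr6:122309362-122309683) had 17, 12, 7 and 12 reads in control-named and 8, 10, 34 and 11 in IFNγ-named libraries, 111 in all. The libraries of the tables overlapped, and IFNγ-named library 3 stood above the rest. The Phc1 gene body itself gave 5.67% ± 1.38 and 8.07% ± 6.54.

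The next genes of the Phc1 bait were far away. C3ar1, the receptor of the complement fragment C3a, lay more than 500 kb to the right, beyond Nanog, and gave 10.5% ± 6.14 and 6.73% ± 2.13. Iqsec3, an exchange factor gene of inhibitory synapses on the far left, gave 2.91% ± 1.25 and 7.28% ± 6.86. Slc2a3 gave 5.85% ± 6.93 and 3.01% ± 0.890, with 57.0% of its reads in one library, Apobec1 2.69% ± 1.15 and 5.25% ± 4.46, Mfap5 2.17% ± 1.26 and 3.77% ± 2.40, and the predicted gene Gm7298 0.540% ± 0.121 and 1.89% ± 2.82.

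Both C3ar1 fragments of Phc1 were read in every library, as was usual, since 46 of the 72 Phc1 pairs were. A pair read in every library can hold 1 read in most, as the Nanog pair at 210.5 kb did (1, 1, 1 and 1, then 20, 1, 1 and 1). Whether the libraries are independent in such reads was not tested. The fragment at 509.9 kb (chr6:122849355-122850064, in an exon) had 18, 8, 12 and 8 reads in control-named and 10, 16, 8 and 12 in IFNγ-named libraries, 92 in all and 11.5 ± 4.73 and 11.5 ± 3.42 per library. The fragment at 516.3 kb (chr6:122856024-122856131, 0.03 kb from the C3ar1 start site) had 57, 12, 15 and 9 and then 8, 9, 7 and 7 reads, 124 in all and 67 without its highest library. The first was even between tables, and in the second control-named library 1 stood far above the others. Among pairs beyond 250 kb, 29 of 417 over all baits (6.95%) had 7 or more reads in every library, a minimum chosen after the values were seen. These 2 were the only such pairs among 28 of Phc1 (7.14%, near the share over all baits), and there was none among 27 of Nanog. With a minimum of 8 the pair at 509.9 kb was left for Phc1, and 19 over all baits. They were also the only pairs of either bait called in both tables.

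**Figure D2:**
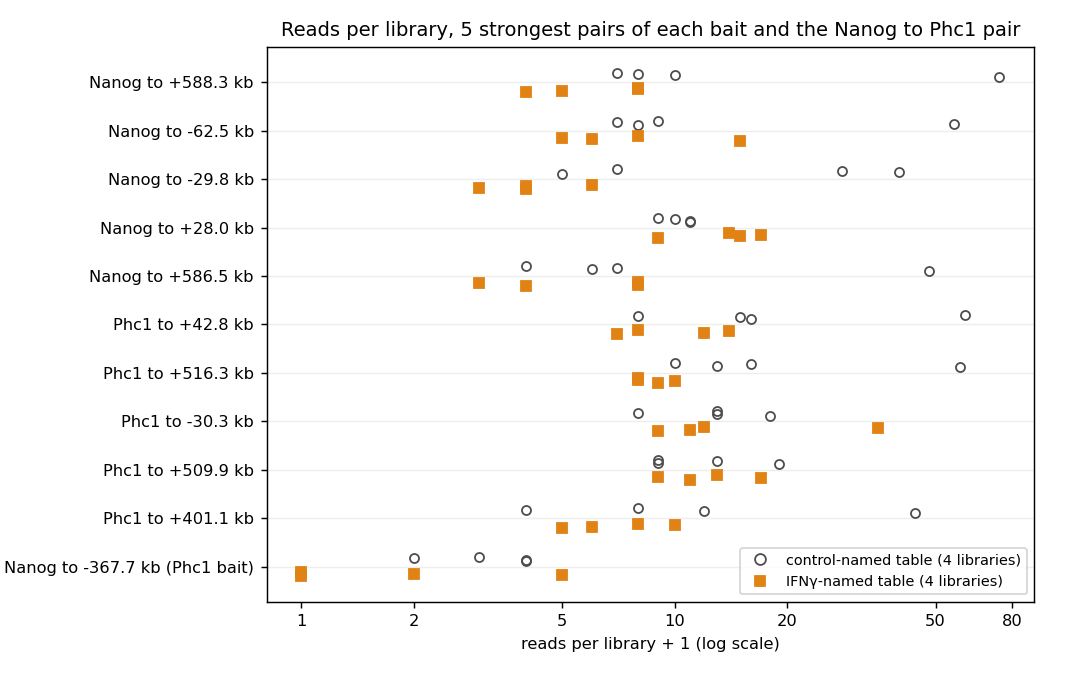
Reads per library plus 1 on a log axis for the 5 pairs of each bait with the most reads and for the Nanog to Phc1 pair (rows, named by bait and distance in kb). Open circles are the 4 libraries of the control-named table and orange squares the 4 of the IFNγ-named table. In most rows a single library lies far to the right, such as 73 reads of the Nanog pair at 588.3 kb against 3 to 9 elsewhere, while the Nanog pair at 28.0 kb and the Phc1 pair at 509.9 kb stay within 8 to 16 and 8 to 18 reads.

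Of 22 genes of the locus list (M6pr, Klrg1, Phc1, Rimklb, Mfap5, Apobec1, Gdf3, Dppa3, Nanog, Slc2a3, Foxj2, C3ar1, Necap1 and 9 Clec4 genes), Nanog overlapped 11 with a read and Phc1 8. Together they held 36.4% of the Nanog reads and 43.7% of the Phc1 reads. Reads within 1 kb of a start site were found at 3 of these genes from Nanog and at 5 from Phc1. From Nanog they were at Mfap5 (41 reads), Phc1 (14) and Foxj2 (6). From Phc1 they were at M6pr (166), C3ar1 (124), Foxj2 (19), Nanog (15) and Klrg1, an inhibitory receptor of lymphocytes (12). In the smaller list of the pluripotency gene neighbourhood (Nanog, Dppa3, Gdf3, Apobec1, Slc2a3 and Phc1) Nanog overlapped 3 genes, Slc2a3, Apobec1 and Phc1, and Phc1 overlapped 4, Slc2a3, Apobec1, Nanog and its own gene. No pair of either bait overlapped Dppa3, a maternal factor of early embryos, or Gdf3, a TGF-beta family ligand. At Necap1, an endocytosis gene, Nanog had 13 reads and Phc1 none. Of 9 Clec4 genes Nanog overlapped 4 with 231 reads, 8.28% of its reads, and Phc1 1 with 1 read.

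A score of at least 5 was taken as a called contact. Nanog had 13 called of 77 listed pairs (16.9%) in the control-named table, against 11.8% of all baits' pairs at this distance. It had 6 of 76 (7.89%) in the IFNγ-named table, against 10.4%. Phc1 had 8 of 68 (11.8%) and 10 of 64 (15.6%). These shares lie near the background. Of the 19 Nanog contacts none was called in both tables, and of the 16 Phc1 contacts 2 were, both at C3ar1.

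On the left, the called contacts of Nanog began with a group around Phc1. One lay at 450.9 kb, nearest to Klrg1, and those at 339.5, 310.9, 295.1 and 293.3 kb were intergenic with 1700063H04Rik as the nearest start site. One at 258.3 kb was in Rimklb, those at 74.5 and 62.5 kb lay nearest to Dppa3, and one at 29.8 kb was intergenic next to Nanog. On the right, one at 95.8 kb lay 1.04 kb from a start site of Slc2a3, and the other 9 were nearest to or inside Clec4 genes. These were at 193.9 and 221.2 kb (Clec4a1), 235.5 and 257.4 kb (Clec4a3), 274.3 kb (Clec4a4), 406.8 kb (Clec4a2), 509.0 kb (Clec4n) and 586.5 and 588.3 kb (Clec4e). The contacts at 258.3, 95.8, 193.9, 221.2, 235.5 and 257.4 kb were the 6 of the IFNγ-named table.

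For Phc1 the called contacts on the left were at 929.5 and 880.8 kb in Iqsec3, at 559.4 kb in Gm7298, at 546.2 kb nearest to the murinoglobulin gene Mug1, and at 95.3 and 81.2 kb nearest to Klrg1. On the right they were at 35.3 and 42.8 kb in intergenic DNA near 1700063H04Rik, at 240.5 kb in an intron of Apobec1, at 306.1 kb nearest to Dppa3, at 336.0 kb nearest to Nanog, at 401.1 and 443.2 kb in Slc2a3, at 509.9 and 516.3 kb in C3ar1 and at 634.7 kb nearest to Clec4a4. Apart from the 2 at C3ar1, those at 929.5, 880.8, 559.4, 546.2, 81.2, 240.5, 306.1 and 336.0 kb were called in the IFNγ-named table, and the rest in the control-named table. One called contact of the 35, at C3ar1, lay within 1 kb of a start site.

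Most called contacts rested on one library. In all 13 Nanog contacts of the control-named table and all 6 of the IFNγ-named table, the highest library held over 50% of the table's reads of the pair (medians 67.7% and 67.8%). For Phc1 this was so in 7 of 8 and in 8 of 10 contacts (medians 70.7% and 73.2%), and the exceptions were the C3ar1 fragment at 509.9 kb in both tables and the one at 516.3 kb in the IFNγ-named table. Among pairs that had 10 or more reads in a table but were not called, the medians were 46.7% and 50% for Nanog and 41.9% and 42.9% for Phc1, and 19 of 41, 18 of 38, 12 of 33 and 10 of 29 pairs were over 50%. Called pairs also held more reads of the table, with medians of 43 and 37.5 against 18 and 19 (Nanog) and 59.5 and 44 against 20 and 21 (Phc1). The score was computed over a table's libraries together, so 1 high library can raise it. The part of this selection in the shares was not tested.

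**Figure D3:**
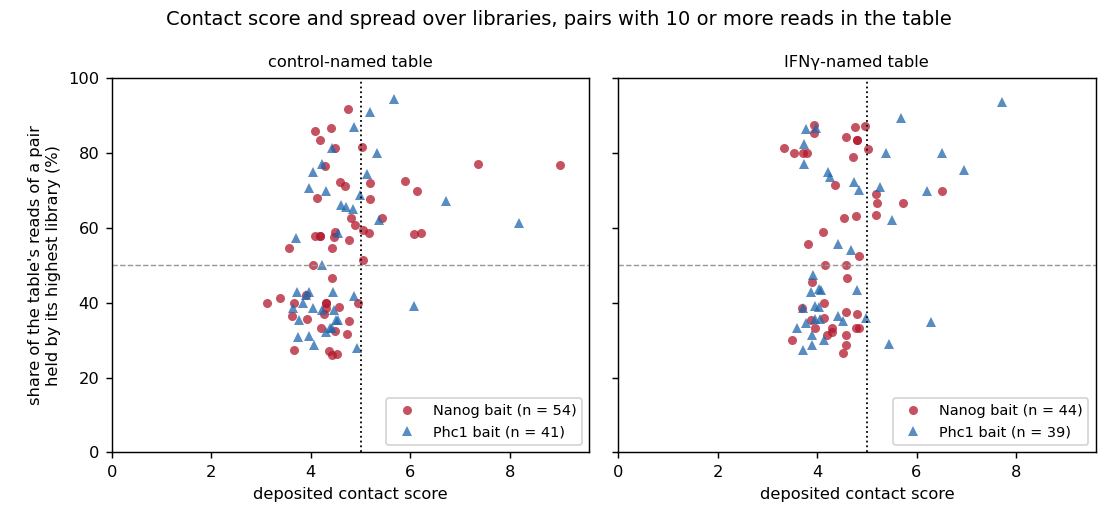
Deposited contact score (horizontal axis) against the share of a table's reads of the pair that its highest library held (vertical axis, %), for pairs with 10 or more reads in the table, control-named left and IFNγ-named right. Red circles are Nanog pairs (54 and 44) and blue triangles Phc1 pairs (41 and 39), the dotted line is the score of 5 for a called contact and the dashed line is 50%. To the right of the dotted line nearly all points lie above 50%, and the exceptions are the Phc1 points at C3ar1.

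The strongest pairs show the same in single values. The Nanog pair at 588.3 kb (chr6:123294897-123296798, nearest to Clec4e) had 73, 9, 7 and 6 reads in control-named and 3, 4, 7 and 7 in IFNγ-named libraries. Its near neighbour at 586.5 kb had 47, 5, 6 and 3 and then 3, 7, 2 and 7 reads. The same library, control-named 1, was the highest of both. The Nanog pair at 62.5 kb (chr6:122644695-122645283), between Dppa3 and Nanog, had 7, 55, 6 and 8 and then 14, 5, 4 and 7 reads, highest in control-named library 2, and the one at 29.8 kb had 4, 39, 27 and 6 and then 3, 2, 3 and 5. The Phc1 pair with most reads, at 42.8 kb, had 15, 14, 7 and 59 and then 6, 11, 13 and 7, highest in control-named library 4. Without the highest library its 132 reads became 73, and the 116 of the Nanog pair at 588.3 kb became 43. Some of the short fragments behind these values are shown in full (GRCm38.p6, plus strand, reads of the 8 libraries summed), since each is a single DpnII fragment that took up many reads of its bait. Capitals mark the GATC at which each fragment begins.
Nanog at 29.8 kb left, chr6:122677616-122677807, 89 reads: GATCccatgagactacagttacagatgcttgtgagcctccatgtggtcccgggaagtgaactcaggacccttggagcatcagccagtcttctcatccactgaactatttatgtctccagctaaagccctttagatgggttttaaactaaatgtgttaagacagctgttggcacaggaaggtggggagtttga
Nanog at 586.5 kb right, chr6:123293940-123294094, 80 reads: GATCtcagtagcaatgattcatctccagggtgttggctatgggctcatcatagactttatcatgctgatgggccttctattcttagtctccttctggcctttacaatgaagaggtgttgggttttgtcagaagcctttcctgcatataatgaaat
Phc1 at 42.8 kb right, chr6:122382569-122382687, 132 reads: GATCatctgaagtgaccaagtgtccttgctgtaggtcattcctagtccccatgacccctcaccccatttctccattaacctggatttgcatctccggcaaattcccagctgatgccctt

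Within each library the 2 baits can be compared directly, since both were captured from the same ligation. Of all its reads, Nanog had 25.2% ± 5.50 from 10 kb to 1 Mb and Phc1 16.5% ± 3.83 (SD, n = 8). Nanog was higher in 7 libraries, by 8.78 percentage points on average. Control-named library 4 was the exception, with 13.2% for Nanog and 18.0% for Phc1. The stretch between the baits is the same DNA for both, except that each bait leaves out the 10 kb next to itself. Nanog sent 40.9% ± 8.98 of its 10 kb to 1 Mb reads there against 28.9% ± 7.09 for Phc1, again higher in 7 of 8. The difference was 12.05 percentage points, and 9.02 over 20 kb to 1 Mb (exact sign-flip test, adjusted p = 0.117). Reads at 10 to 100 kb went the other way, 53.8% ± 7.92 for Nanog and 60.4% ± 11.7 for Phc1, lower for Nanog in 6 of 8. The side of the other bait held 44.5% ± 9.26 of the Nanog and 45.6% ± 6.47 of the Phc1 reads, the right side of the chromosome 55.5% ± 9.26 of the Nanog reads, and the window at the other bait 0.468% ± 0.375 and 0.541% ± 0.432.

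None of these 6 comparisons passed after adjustment. The exact sign-flip permutation test over 8 libraries (two-sided) gave p = 0.0234 for reads from 10 kb to 1 Mb, 0.0156 for the stretch between the baits and 0.0312 for the right side, each with an adjusted p = 0.0625. The other 3 had p = 0.156 (10 to 100 kb), 0.828 (side of the other bait) and 0.281 (window at the other bait), with adjusted p-values of 0.234, 0.828 and 0.338. When each pair was limited to 5 reads per library, the differences in the range, between the baits, at 10 to 100 kb and on the right side passed (7.50, 11.7, -8.99 and 10.0 percentage points, adjusted p = 0.0234, 0.0156, 0.0156 and 0.0156, exact sign-flip test). The window at the other bait (-0.284, adjusted p = 0.0375) and the side of the other bait (2.07, adjusted p = 0.0469, same test) passed too. On the side of the other bait the sign was reversed, since the difference without the limit was -1.12. Over all alternatives the adjusted p ran from 0.0234 to 0.125 for the range, from 0.0156 to 0.125 between the baits, from 0.0156 to 0.375 at 10 to 100 kb and from 0.0156 to 0.199 on the right side.

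**Figure D4:**
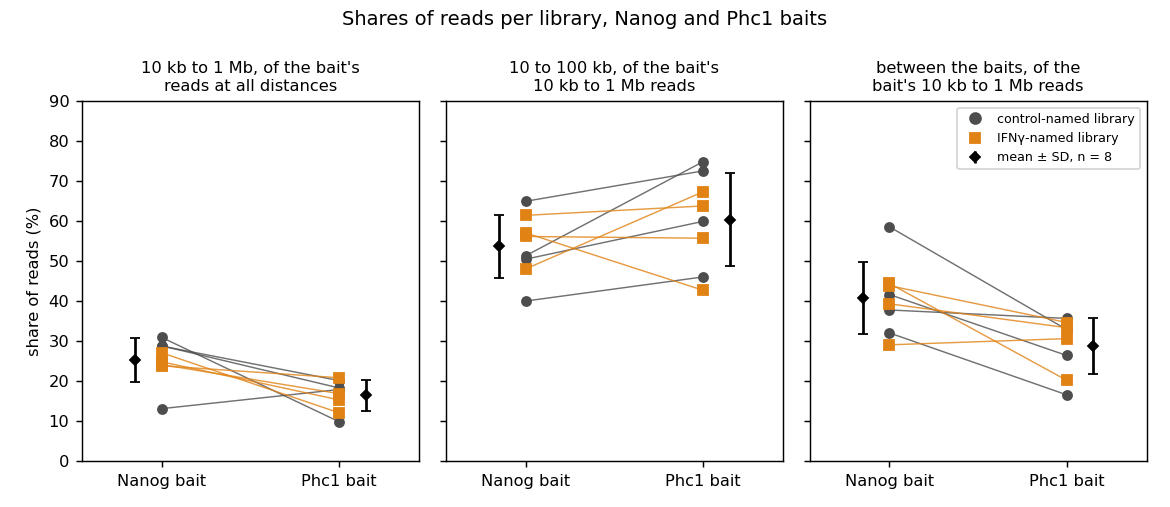
Share of reads in % (vertical axis) of the Nanog and the Phc1 bait in each of the 8 libraries, from left to right for reads from 10 kb to 1 Mb out of all reads of the bait, for 10 to 100 kb and for the stretch between the baits. Lines join the values of one library, grey circles are control-named and orange squares IFNγ-named, and black diamonds are the mean ± SD (n = 8). In the left and right panels 7 of 8 lines fall from Nanog to Phc1, and in the middle panel 6 of 8 rise.

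Neither bait's total passed the test between the 2 tables. The reads from 10 kb to 1 Mb were 489, 486, 362 and 251 for Nanog in control-named and 278, 378, 264 and 281 in IFNγ-named libraries. Relative to the other baits this was a log2 difference of -0.09 (SE 0.15; 0.09 turned; adjusted p = 0.816 by edgeR's quasi-likelihood test over 14 baits, of which 0% passed). Phc1 had 475, 431, 170 and 291 and then 202, 409, 371 and 242 reads, a log2 difference of 0.16 (SE 0.25; -0.16 turned; adjusted p = 0.816, edgeR). It became -0.0333 without control-named library 3 and -0.0395 without IFNγ-named library 3. The libraries of the tables overlapped for both. Of the 14 baits 1, a Ciita bait, had an unadjusted p under 0.05.

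No share passed between tables, and with 4 against 4 libraries a single share could not have passed alone. The one with the smallest p was the Phc1 share on the side of Nanog, which was 58.1, 46.9, 47.1 and 46.1% in control-named and 44.6, 45.2, 42.1 and 34.7% in IFNγ-named libraries. The groups did not overlap, and the means of 49.5% ± 5.74 and 41.6% ± 4.82 (SD, n = 4) differed by -7.88 percentage points (7.88 turned; exact permutation test, two-sided, p = 0.0286, the smallest that 4 against 4 libraries allow, adjusted over 8 shares p = 0.229). Without control-named library 1 it was -5.02 percentage points, and counted as fragments with a read in place of reads it was 0.055. The Nanog share between the baits was 42.6% ± 11.4 and 39.2% ± 7.11 (p = 0.686, exact permutation test), and the Phc1 share there 28.0% ± 8.48 and 29.8% ± 6.57 (p = 0.714). The Nanog share at 10 to 100 kb was 51.8% ± 10.2 and 55.8% ± 5.59 (p = 0.543), and that of Phc1 63.4% ± 13.3 and 57.5% ± 10.9 (p = 0.514, same exact test). The adjusted p was 0.714 for each of these 4. With 1 library left out, the difference at 10 to 100 kb ran from 0.091 (without control-named library 1) to 8.40 percentage points (without control-named library 2) for Nanog, and from -11.7 (without control-named library 1) to -1.07 (without IFNγ-named library 2) for Phc1. The same range was -6.84 to 2.01 between the baits for Nanog and -1.95 to 5.00 for Phc1.

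No single pair or window passed. edgeR's quasi-likelihood test called 0 of the 125 pairs of the 2 baits with 10 or more reads, and 0% of 3673 pairs over all baits, with 14 of the 125 and 614 of the 3673 at an unadjusted p under 0.05. DESeq2 called none either, with 10 of the 125 and 281 of the 3673 under 0.05. In 10 kb windows edgeR called 0 of 79, and 0% of 636 over all baits, with 10 and 107 under 0.05 unadjusted, and DESeq2 none with 8 and 63 under 0.05. The smallest p of the 2 baits belonged to the window 10 to 20 kb left of Nanog, the stretch next to its promoter. It held 7, 13, 6 and 11 reads in control-named and 9, 56, 24 and 31 in IFNγ-named libraries, means of 9.25 and 30.0. Only IFNγ-named library 1 lay within the range of the control-named libraries. Different fragments carried the other 3. Library 2 had 28 reads on one fragment and 23 on another, at 18.3 kb, library 3 had 13 at 10.6 kb, and library 4 had 23 at 19.7 kb, and each of these fragments had 7 or fewer reads in every other library. The log2 difference was 1.82 (SE 0.59; -1.82 turned; edgeR adjusted p = 0.292).

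The pairs with the smallest p were mostly those held by one library. For Phc1 they were the pair at 546.2 kb left (2, 1, 1 and 1 against 1, 58, 2 and 1 reads), the pair at 95.3 kb left (1, 1, 3 and 50 against 1, 2, 1 and 1), the pair at 21.8 kb left (1, 1, 1 and 1 against 1, 1, 1 and 19), and the called contacts at 559.4 and 929.5 kb. For Nanog they were the pair at 29.8 kb left, with a log2 difference of -2.32 (SE 0.79; 2.32 turned), and the pair at 19.7 kb left, with 2, 4, 2 and 3 against 5, 4, 7 and 23 reads and 1.88 (SE 0.70; -1.88 turned). The others were the pairs at 136.6 kb in Foxj2 (2, 1, 1 and 1 against 27, 1, 1 and 2), at 32.6 kb in Slc2a3 (6, 19, 5 and 3 against 1, 2, 2 and 4) and at 509.0 kb. All 10 had an adjusted p = 0.282 in edgeR. In the pair at 32.6 kb the libraries overlapped only at 3 and 4 reads.

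Among pairs with 10 or more reads, 1 of 70 Nanog pairs and 0 of 55 Phc1 pairs had all libraries of one table above all of the other. Over all baits this was so for 0.951% of 1052 pairs with the IFNγ-named table lower and 0.19% with it higher. The Nanog pair (chr6:122522138-122522665, 185.1 kb to the left, at a start site of Mfap5) had 14, 3, 3 and 3 reads in control-named and 2, 2, 1 and 2 in IFNγ-named libraries.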

How the data were processed

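Capture-C of small-intestinal organoids was analysed from 2 tables that the authors deposited. Per the file headers, each table holds counts of reads per fragment pair in 4 columns, one per library, and the caller's score of each pair (CHiCAGO column names), computed over the table. Per the submitters' processing notes, reads were aligned with Bowtie2 to mm10. How duplicates were removed and how the caller was set was not given in any source used here. Reads carry no molecular identifiers, so several can stem from 1 ligation product.

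Both tables were joined by fragment numbers, and a pair missing from 1 table was given counts of 0 there. All 1781 chromosome 6 fragments start at GATC in GRCm38. Genes are from GENCODE vM21. Every listed gene, except 1 that is not reported here, and every called contact is named, with the 5 strongest and the 5 smallest-p pairs of each bait. A gene is reached within 1 kb of a start site.

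Pairs, 10 kb windows and bait sums were tested with edgeR 4.0.16 (TMM, 10 or more reads, SE from the F statistic, adjusted p 0.05), and again with DESeq2 1.42.0 (R 4.3.3), where 357 pair and 53 window p-values were NA after adjustment and stayed so. The edgeR step was tested on simulated data. Shares were compared by exact permutation and sign-flip tests in scipy 1.17.1 under Python 3.11.15. Adjustment is by Benjamini-Hochberg throughout. The members and lists were chosen with earlier results of these data known.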

Additional observations from a re-analysis of the deposited data

Results flagged for a closer look

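In 8 of the 42 groups of 4 libraries looked at, 1 library stood apart from the other 3 by Dixon's criterion. Chance flags about 1 group in 20, or 2.1 of 42, and the groups are not independent, since several pairs share libraries. The flagged pairs were among those with most reads, a rank that 1 high library raises. The rate of 1 in 20 therefore does not hold for them, and the 8 are no measure of an excess. Control-named library 1 had 58.1% of the Phc1 reads on the side of Nanog, where the nearest other library of that table had 47.1%. Control-named library 4 had 13.2% of its Nanog reads between 10 kb and 1 Mb, and the nearest other library 28.8%.

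The other 6 were strong pairs. Control-named library 1 held 73 reads of the Nanog pair at 588.3 kb (nearest other library 9), 47 of the Nanog pair at 586.5 kb (nearest 6) and 57 of the Phc1 pair at the C3ar1 start site (nearest 15). Control-named library 2 held 55 reads of the Nanog pair at 62.5 kb (nearest 8), and control-named library 4 held 59 of the Phc1 pair at 42.8 kb (nearest 15). IFNγ-named library 3 held 34 reads of the Phc1 pair near the M6pr start site (nearest 11).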

How the results depend on the processing

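No paired analysis between the tables was possible because the count columns name no mouse or passage, so a replicate block could not be fitted. Between the tables, with differences in percentage points, the share of Nanog reads at 10 to 100 kb became -0.238 over 20 kb to 1 Mb and -0.0352 without pairs of which 1 library held over 50%, a setting chosen after seeing the data. Counted as fragments, the shares became 1.34 (Nanog, between the baits), 0.583 (Phc1, 10 to 100 kb) and 0.055 (Phc1, side of Nanog). With a limit of 5 reads per pair and library, Nanog between the baits became 1.21. Phc1 at 10 to 100 kb became 0.679 without pairs held by 1 library, and Phc1 at Nanog 0.00332 without pairs between baits. With 1 library left out, Nanog between the baits ranged from -6.84 to 2.01, above 0 without control-named library 2 or IFNγ-named library 1, and Phc1 between the baits from -1.95 (without control-named library 1) to 5.00. No share passed between tables under any setting run. With 1 library left out none could pass, since the smallest possible p of the exact permutation test was then 0.0571. With all libraries, a share at the smallest possible p had an adjusted p of 0.229 (same test), so a single share could not pass alone. The lack of a pass is therefore no measure of stability.

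Nanog minus Phc1 within libraries passed under some settings. Counted as fragments it was -7.69 at 10 to 100 kb, 12.7 between the baits, -0.692 at the other bait, 7.13 on the right side and 2.91 on the side of the other bait. With the limit of 5 reads it was 7.50 (of all reads), -8.99, 11.7, -0.284, 10.0 and 2.07 in the same order. On the side of the other bait both settings reversed the sign of the main difference, -1.12. Without pairs between baits it was 9.03 of all reads, 12.1 between the baits and 10.5 on the right side. The side of the other bait ranged from -3.31 to 2.06 with 1 library left out, above 0 without library 1 of either table.

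Phc1 at Nanog minus its mirrored window became -1.38 reads without pairs between baits, a setting that takes 14 of the 16 reads from one window only, and 20.1 with half-widths of 50 kb. Shared fragments numbered 3 at 1 read, 1 at 5 reads, 1 with reads in 2 libraries, 12 in 10 kb bins and 2 in 2 kb bins, the bins chosen after seeing the data. A score of 3 gave 64 and 54 Nanog and 47 and 46 Phc1 contacts (control-named first), and a score of 7 gave 2, 0, 1 and 1. With no count filter edgeR called 1 pair, Phc1 at 546.2 kb (58 of 67 reads in IFNγ-named library 2, adjusted p = 0.0316), and under the other settings the smallest adjusted p of the 2 baits' pairs was 0.25 to 0.501. The bait totals became 0.0612 on the log2 scale for Nanog up to 500 kb, and ranged from -0.0395 to 0.272 for Phc1 with 1 library left out. Where no cause is given, it was not tested. Pairs with as few as 10 reads over 8 libraries were tested.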
